A study of Homo sapiens with 12 samples.

Results

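The genes that carry glucose to pyruvate, and pyruvate to lactate or into the mitochondrion, were followed in MDA-MB-231 cells after 24 h with each of 3 compounds or the vehicle. The list named 34 genes by function: glucose transporters, hexokinases, isomerases, phosphofructokinases and their regulators, the enzymes down to pyruvate, lactate dehydrogenases and exporters, pyruvate dehydrogenase kinases, the mitochondrial pyruvate carrier and the pyruvate dehydrogenase complex. A probe set of that 1 symbol was found for 32 of them, among 11963 genes in all. The lactate exporters SLC16A1 and SLC16A3 were not analysed here. MDA-MB-231 is an established human line of triple-negative breast cancer, and all 4 groups were this line, so no other genetic background was tested. The groups were DMSO alone, Manassantin, Rotenone and Digoxin, each with 3 Affymetrix arrays. Titles of the samples call the last compound digoxin, but the study's design description writes digitoxin, another cardiac glycoside; the titles are followed here. That description also specifies manassantin A. The sources used here give neither the doses nor the oxygen during treatment.

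Glycolysis splits glucose to pyruvate in the cytosol. Lactate dehydrogenase then reduces pyruvate and restores the NAD that the pathway uses, while the mitochondrial carrier and pyruvate dehydrogenase send it towards the citric acid cycle, and the pyruvate dehydrogenase kinases switch that complex off. Many of the genes are known targets of the hypoxia-inducible factor HIF-1, and tumour lines are known for high glucose use even with oxygen. Rotenone blocks respiratory complex I, digoxin blocks the sodium pump, and manassantin A is a plant lignan that the study's title ties to hypoxia, Hsp90 and chaperone-mediated autophagy.

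Values below are log2 expression, so a difference of 1 is a doubling. Each gene was read by its brightest probe set, and a gene with a mean under the 40th percentile of all genes, 5.747, is called dim. Differences are group means with the standard error (SE) of a limma model over all 12 arrays, and a gene is called where its Benjamini-Hochberg adjusted p over all 11963 genes lay under 0.05. Whether a group's 3 arrays are separate cultures is not stated in the labels, so the p-values cover the spread among these arrays alone, and that spread may be technical. Arrays correlated at 0.977 or more. All 8 markers known to be high in this line were bright, and the 3 endothelial and 2 leukocyte markers measured were dim, as were 4 of 5 fibroblast markers. Of 7 genes known to be low in the line, PGR, CDH1 and FOXA1 were dim, while ESR1, ERBB2, EPCAM and GATA3 lay above that cut.

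Digoxin lowered much of the pathway. Against DMSO 16 of the 32 measured members fell and 3 rose, where 26.9% of all genes tested fell and 28% rose (54.8% called in either direction). The median difference was -0.122 over the members and 0.0651 over all genes. The falls ran from -1.23 for BPGM to -0.12 for TPI1, and the rises were of the glucose transporters SLC2A1 and SLC2A3 and of the pyruvate carrier subunit MPC2. In bulk RNA such as this, fewer cells of a type and less RNA per cell cannot be told apart. With each array centred on its median, 13 members were lower and 7 higher, and over all genes 2689 were lower and 5002 higher in place of 3214 and 3347. The medians were then -0.0357 over the members and 0.151 over all genes. The 18S rRNA control was lower with digoxin by 0.36 (two-sided exact permutation test, p = 0.2, with 0.1 the smallest possible for 3 against 3), and with that control as a covariate 16 members were lower and 4 higher. The summed log2 level of the 8 line markers was 94.8 to 95.1 with digoxin and 95.7 to 95.8 with DMSO, and that of the 5 fibroblast markers, 4 of them dim, was 25.8 to 26.4 and 25.2 to 25.9. Their part in the falls was not tested.

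Manassantin left most of the pathway near the vehicle. Of the 32 members 3 rose, SLC2A3, HK2 and ENO2, and limma called 0 lower, also at an unadjusted p under 0.05, where 9 were higher. Of all genes 0.97% were called (0.853% higher, 0.117% lower), and 1896 of the 11963 had an unadjusted p under 0.05 in either direction. The median was 0.0843 over the members and 0.00689 over all genes, and 26 of the 32 differences were above 0. All 3 calls were lost with any 1 of the 6 manassantin and DMSO arrays left out. On the same arrays the 18S rRNA control was lower with manassantin by 0.87 (two-sided exact permutation test, p = 0.2). With that control as a covariate limma called 0 members, and the median over the members was 0.0472. At an unadjusted p under 0.05, 6 members then stood higher, and the like count of all genes is not given here. The control differed between the groups, so the covariate overlaps with treatment, and a lost call need not mean an absent change.

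With rotenone SLC2A3 and the brighter probe set of HK2 rose, and limma called 0 members lower, with 2 lower at an unadjusted p under 0.05. The calls were 6.25% of the 32 members, beside 6.94% of all genes called (3.55% higher, 3.39% lower), with a median of 0.0186 over the members and 0.0124 over all genes. At an unadjusted p under 0.05, 3 members were higher, and 2545 of all 11963 genes passed in either direction. The 18S control was lower with rotenone by 0.43 (two-sided exact permutation test, p = 0.2), and with it as a covariate the HK2 call was lost. The 3 comparisons share the DMSO arrays, so likeness between their columns is partly built in.

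**Figure D1:**
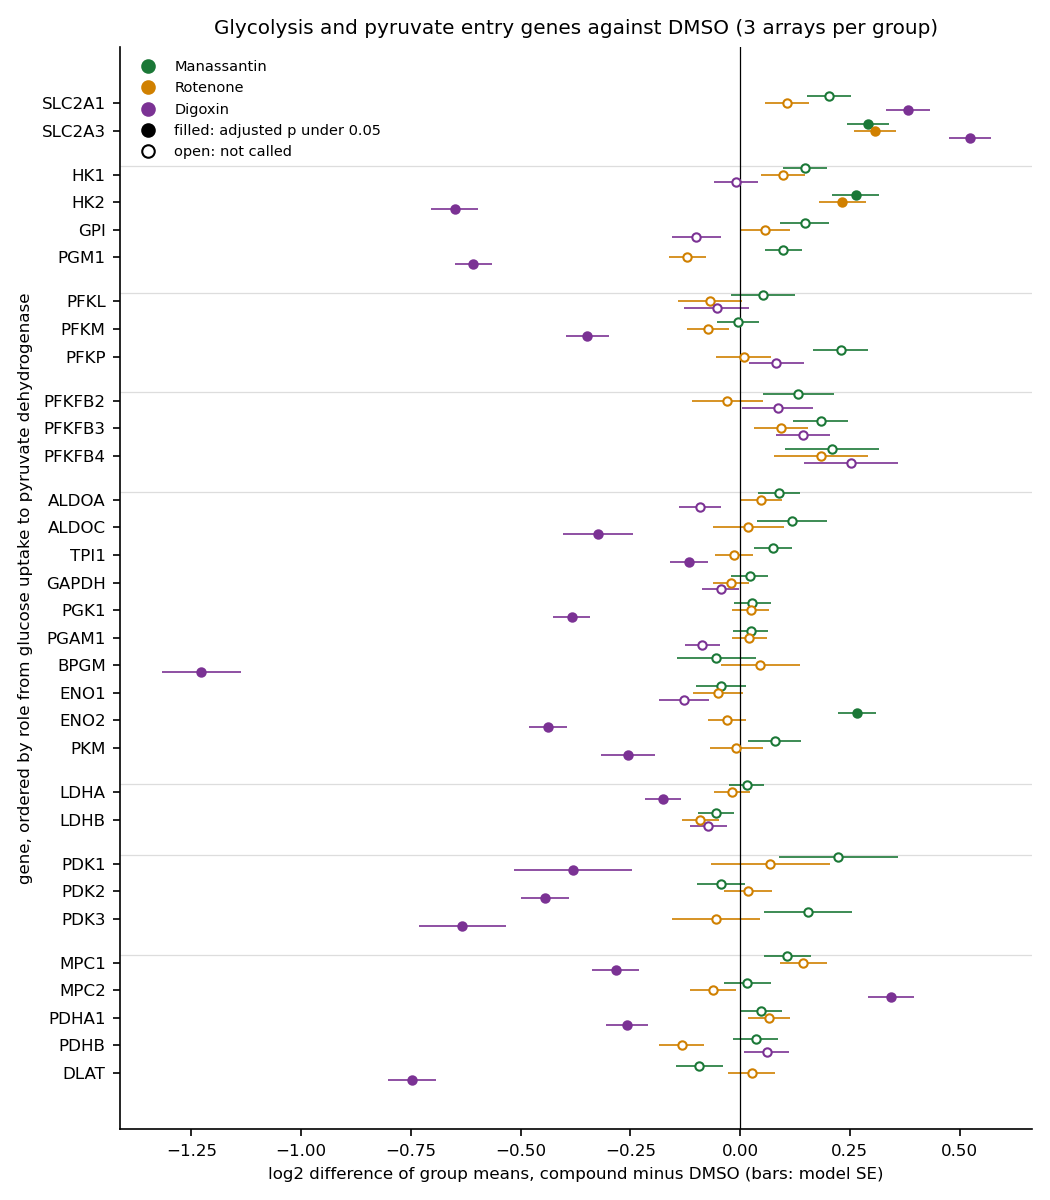
Log2 difference from DMSO for each of the 32 measured members, ordered from glucose uptake at the top to pyruvate dehydrogenase at the bottom, with bars for the model SE (3 arrays per group). Filled points were called: the digoxin points lie left of 0 for 24 members and reach -1.23 for BPGM, while the manassantin and rotenone points stay within 0.31 of 0.

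Promoter sequences of 4 members that differed in their response are shown, because the pathway is known for regulation through the letters ACGTG and GCGTG, the core of the hypoxia response element, and through the E-box CACGTG that MYC and its relatives bind. Each window runs from 250 bases before to 50 bases after a RefSeq start site (GRCh38.p14), 5′ to 3′ on the gene's strand, with either core or its reverse complement in capitals. A match is a description of letters and not a site. SLC2A1 rose with digoxin, PGK1 and BPGM fell with it, and HK2 fell with digoxin and, in the brighter of its 2 probe sets, rose with manassantin and rotenone. HK2 has another RefSeq window, chr2:74833877-74834176, with matches from -229, -55 and -48 and no CACGTG; the window shown was chosen because it holds both kinds of letters.
SLC2A1, chr1:42958819-42959118, minus strand: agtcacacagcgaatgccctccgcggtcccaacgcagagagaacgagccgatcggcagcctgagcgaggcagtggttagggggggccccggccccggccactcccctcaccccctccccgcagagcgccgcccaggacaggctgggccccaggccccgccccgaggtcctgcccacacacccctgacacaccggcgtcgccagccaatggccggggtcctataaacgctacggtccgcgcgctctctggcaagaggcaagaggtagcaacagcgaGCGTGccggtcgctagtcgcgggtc
HK2, chr2:74834920-74835219, plus strand: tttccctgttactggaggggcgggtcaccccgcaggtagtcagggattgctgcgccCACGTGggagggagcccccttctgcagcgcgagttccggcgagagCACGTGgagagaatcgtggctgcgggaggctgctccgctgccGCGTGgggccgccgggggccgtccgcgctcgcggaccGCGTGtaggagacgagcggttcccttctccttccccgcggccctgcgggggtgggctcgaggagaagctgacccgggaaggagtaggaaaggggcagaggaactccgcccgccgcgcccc
PGK1, chrX:78103998-78104297, plus strand: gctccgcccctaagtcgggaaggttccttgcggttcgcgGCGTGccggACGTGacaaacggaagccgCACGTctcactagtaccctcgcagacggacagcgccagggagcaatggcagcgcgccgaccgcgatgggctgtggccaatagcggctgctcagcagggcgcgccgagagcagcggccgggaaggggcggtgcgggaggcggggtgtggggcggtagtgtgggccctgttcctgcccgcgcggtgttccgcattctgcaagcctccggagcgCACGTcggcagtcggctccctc
BPGM, chr7:134646603-134646902, plus strand: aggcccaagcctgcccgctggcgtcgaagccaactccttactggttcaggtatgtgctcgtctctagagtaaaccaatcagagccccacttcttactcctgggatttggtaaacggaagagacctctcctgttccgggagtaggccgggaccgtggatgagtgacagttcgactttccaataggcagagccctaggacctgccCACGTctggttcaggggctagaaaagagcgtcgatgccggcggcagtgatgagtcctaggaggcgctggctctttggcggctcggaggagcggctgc
Positions count from the start site, with bases before it negative. The HK2 window holds CACGTG from -194 and from -149, each containing ACGTG on both strands, and GCGTG from -107 and from -70. PGK1 has matches from -211, -202, -183 and 29, BPGM has a single one from -47, and SLC2A1 has a single one from 26.

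Over all members, RefSeq gave 63 windows for 31 of the 34 genes and none for SLC2A3, PFKFB2 and SLC16A1. ACGTG or GCGTG stood on either strand in 41 of the 63 (65.1%), in 48.4% of all 35116 promoters of the table and in 54.7% of those of protein-coding genes. The median GC content was 69% in members' windows and 62.3% in protein-coding promoters, and the part of base composition in the shares was not tested. Among members that fell with digoxin 63.3% of windows held the letters, among those not called 66.7%, and among those that rose 3 of 4 windows. A gene enters with each of its windows, and windows of a gene can overlap, so these are not shares of genes. The windows of members that rose came from SLC2A1 and MPC2 alone, and some of those of MPC2 overlap. CACGTG stood in 12.7% of members' windows and in 8.34% of protein-coding ones.

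Both glucose transporters were higher with digoxin than with any other treatment. SLC2A1 encodes GLUT1, the main transporter of most tumour lines, and SLC2A3 encodes the high-affinity transporter GLUT3. SLC2A1 read 9.65, 9.73 and 9.68 on the DMSO arrays, 9.80, 9.98 and 9.90 with manassantin, 9.78, 9.79 and 9.80 with rotenone and 10.06, 10.07 and 10.08 with digoxin. Every treated array lay above every DMSO array, and the digoxin arrays lay above the rest. The rise with digoxin was 0.38 ± 0.05 (SE, n = 3 arrays per group, limma adjusted p = 3.65e-05), or 1.3-fold. With manassantin SLC2A1 stood at 0.20 (95% interval 0.09 to 0.31, adjusted p = 0.0777) and with rotenone at 0.11 (adjusted p = 0.25), neither called.

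SLC2A3 was the 1 member called higher with all 3 compounds. It read 7.33, 7.22 and 7.32 with DMSO, 7.62, 7.55 and 7.58 with manassantin, 7.62, 7.60 and 7.57 with rotenone and 7.82, 7.77 and 7.85 with digoxin. The manassantin and rotenone arrays overlapped each other, above DMSO and below digoxin. SLC2A3 rose by 0.29 ± 0.047 with manassantin (limma adjusted p = 0.0187), by 0.31 ± 0.047 with rotenone (adjusted p = 0.00281) and by 0.52 ± 0.047 with digoxin (adjusted p = 1.47e-06). Its 3 probe sets gave 0.29, 0.16 and 0.47 with manassantin, and the probe set at 0.16 was not called. The rotenone call held with each array left out, though not every probe set of SLC2A3 was called with rotenone.

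**Figure D2:**
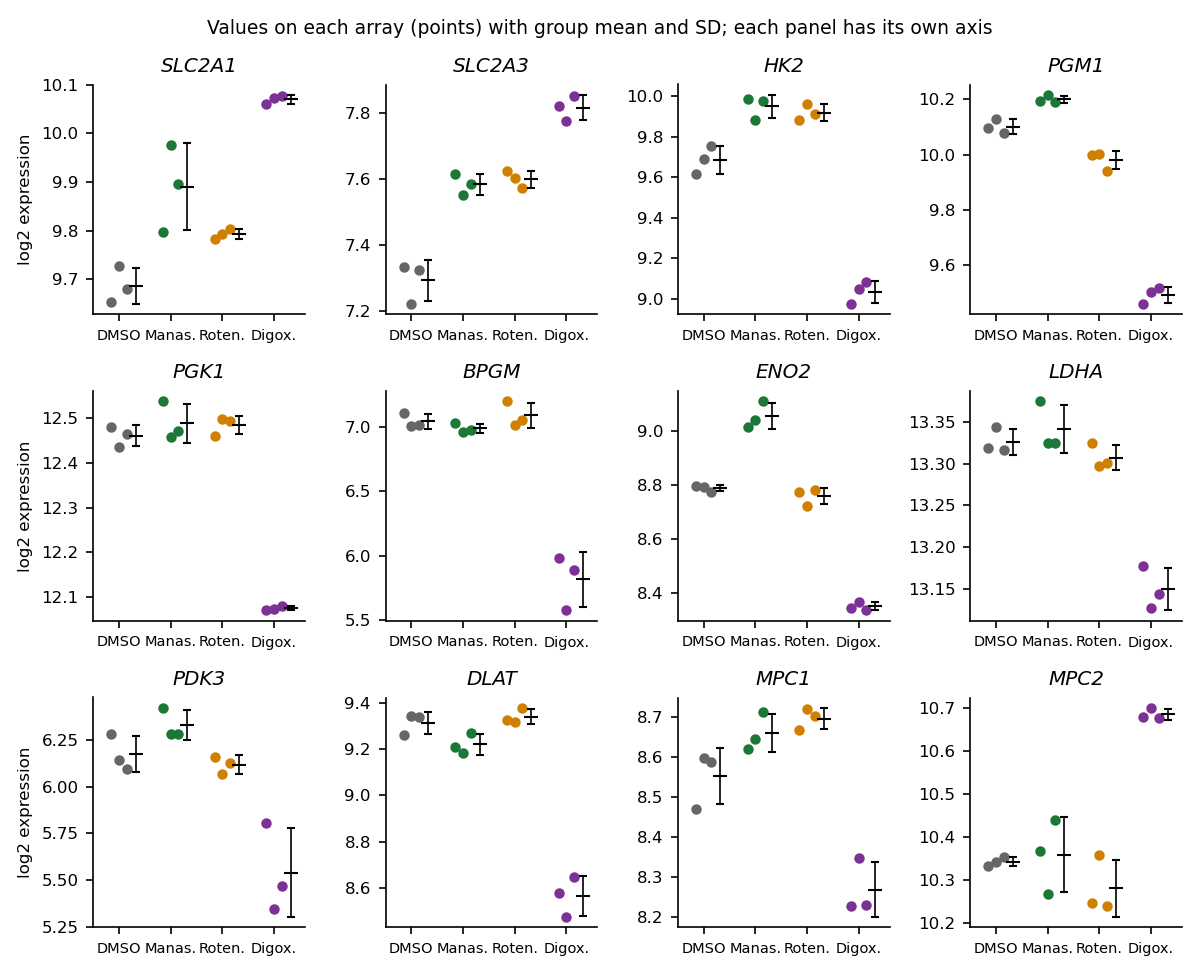
Log2 expression on each of the 12 arrays (points) for 12 members, with the group mean and SD beside the points; each panel has its own axis, which does not start at 0. The digoxin arrays stand above all others for SLC2A1, SLC2A3 and MPC2 and below all others in the other 9 panels. All 12 were picked from members called with digoxin, so this separation is partly built into the choice. The like share of all genes is not given here.

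Hexokinase traps glucose in the cell by phosphorylating it, and of its forms HK2 is the one known to be induced in tumours. HK2 read 9.61, 9.69 and 9.75 with DMSO, 9.99, 9.88 and 9.98 with manassantin, 9.88, 9.96 and 9.91 with rotenone and 8.98, 9.05 and 9.08 with digoxin. Groups therefore stood in 3 tiers, with digoxin lowest, DMSO between, and manassantin and rotenone overlapping at the top. HK2 rose by 0.26 ± 0.054 with manassantin (limma adjusted p = 0.0465) and by 0.23 ± 0.054 with rotenone (adjusted p = 0.0238), and fell by 0.65 ± 0.054 with digoxin (adjusted p = 6.78e-07). Rotenone's call held in 1 of 6 fits with an array left out. A second, dim probe set gave 0.03 with manassantin and -0.19 with rotenone (neither called), and with the mean of both probe sets HK2 stood at 0.15 and 0.02 and neither rise was called. The direction with rotenone therefore rests on the brighter probe set. The fall with digoxin was -0.86 in that second probe set. HK1, the form most tissues express, stood at 0.15, 0.10 and -0.01 with manassantin, rotenone and digoxin, none called.

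GPI turns glucose 6-phosphate into fructose 6-phosphate, and PGM1 links the pathway to glycogen. GPI was not called against DMSO, at -0.10 with digoxin (95% interval -0.22 to 0.02). PGM1 read 10.09, 10.13 and 10.08 with DMSO, 10.19, 10.22 and 10.19 with manassantin, 10.00, 10.00 and 9.94 with rotenone and 9.46, 9.50 and 9.52 with digoxin. No group overlapped another, in the order manassantin, DMSO, rotenone, digoxin. Only the fall with digoxin, by 0.61 ± 0.042, passed against DMSO (limma adjusted p = 1.45e-07); manassantin stood at 0.10 and rotenone at -0.12.

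Phosphofructokinase is the committed step of the pathway, and the PFKFB enzymes make and remove its activator fructose 2,6-bisphosphate. Of these 6 genes 1 was called against DMSO, and that with digoxin, where 54.8% of all genes were called. The 1 was PFKM, the muscle form, which fell by 0.35 ± 0.049 with digoxin (limma adjusted p = 6.25e-05). PFKM went from 8.44, 8.55 and 8.53 to 8.13, 8.16 and 8.18. The digoxin arrays lay below every other array. The liver form PFKL stood at -0.05 and the platelet form PFKP at 0.08 with digoxin. PFKP had its highest values with manassantin, 10.49, 10.40 and 10.38 against 10.32, 10.11 and 10.16 with DMSO, a difference of 0.23 that did not pass (adjusted p = 0.103). PFKFB3, the form with the strongest kinase activity, stood at 0.18, 0.09 and 0.14 with the 3 compounds in the same order, PFKFB4 at 0.21, 0.19 and 0.25 and PFKFB2 at 0.13, -0.03 and 0.09. None was called, and PFKFB2 and PFKFB4 were dim.

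From aldolase to pyruvate kinase all 10 genes stood below DMSO with digoxin on the deposited scale, and 6 of them fell, where 26.9% of all genes fell. With median centring GAPDH stood at 0.04 and PGAM1 at 0.00071, and TPI1 was not called. BPGM, which makes the 2,3-bisphosphoglycerate side product, fell most of all members. It read 7.11, 7.01 and 7.02 with DMSO, 7.03, 6.96 and 6.98 with manassantin, 7.20, 7.02 and 7.05 with rotenone and 5.98, 5.58 and 5.89 with digoxin. The digoxin arrays lay well below the rest, near the dim cut, and the other groups overlapped. The fall was 1.23 ± 0.09 (limma adjusted p = 2.52e-07), to 0.427 of the DMSO level.

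PGK1, the first enzyme of the pathway to make ATP, read 12.48, 12.43 and 12.46 with DMSO, 12.54, 12.46 and 12.47 with manassantin, 12.46, 12.50 and 12.49 with rotenone and 12.07, 12.07 and 12.08 with digoxin. Only digoxin stood apart, with PGK1 lower by 0.38 ± 0.042 (limma adjusted p = 7.68e-06) or 0.767 of the DMSO level. Manassantin and rotenone differed from DMSO by 0.03 and 0.02. All 4 probe sets of PGK1 were lower with digoxin.

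ENO2, the neuronal form of enolase and a known HIF-1 target, moved both ways. It read 8.80, 8.79 and 8.78 with DMSO, 9.02, 9.04 and 9.11 with manassantin, 8.77, 8.72 and 8.78 with rotenone and 8.35, 8.37 and 8.34 with digoxin. The manassantin arrays were above and the digoxin arrays below all others, and rotenone overlapped DMSO. ENO2 rose by 0.27 ± 0.043 with manassantin (limma adjusted p = 0.0187) and fell by 0.44 ± 0.043 with digoxin (adjusted p = 3e-06). ENO1, the form that most cells use, stood at -0.04, -0.05 and -0.13 with manassantin, rotenone and digoxin, none called.

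Pyruvate kinase PKM fell by 0.26 ± 0.061 with digoxin (limma adjusted p = 0.00364), ALDOC, a dim aldolase, by 0.32 ± 0.081 (adjusted p = 0.00474) and TPI1, triose phosphate isomerase, by 0.12 ± 0.043 (adjusted p = 0.0389). The TPI1 call was lost with each of the 6 arrays left out. ALDOA, GAPDH and PGAM1, the aldolase, dehydrogenase and mutase that most cells use, stood at -0.09, -0.04 and -0.09 and were not called. For GAPDH the 95% interval with digoxin ran from -0.14 to 0.05.

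LDHA, the form of lactate dehydrogenase that favours lactate, read 13.32, 13.34 and 13.32 with DMSO, 13.37, 13.32 and 13.32 with manassantin, 13.32, 13.30 and 13.30 with rotenone and 13.18, 13.13 and 13.14 with digoxin. The digoxin arrays lay below all others, and the other groups overlapped. LDHA fell with digoxin alone, by 0.18 ± 0.041 (limma adjusted p = 0.00296), or to 0.885 of the DMSO level, and the call was lost with median centring. LDHB stood at -0.07 (adjusted p = 0.163).

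The 3 pyruvate dehydrogenase kinases were called lower with digoxin in the probe sets used, where 26.9% of all genes were lower. The call was firm for PDK3 alone. With manassantin and rotenone limma called 0 of the 3, beside 0.97% and 6.94% of all genes. PDK1 is the kinase known to be induced in hypoxia. It read 6.02, 5.95 and 6.02 with DMSO, 6.30, 6.30 and 6.07 with manassantin, 6.12, 6.10 and 5.98 with rotenone and 5.22, 5.76 and 5.88 with digoxin. The digoxin arrays were the lowest but far apart, and the fall of 0.38 ± 0.14 (limma adjusted p = 0.0316) was lost without DMSO replicate 1, 2 or 3 or digoxin replicate 1. Without the last it was -0.18, and the call was also lost with median centring and quantile normalization. PDK3 fell by 0.63 ± 0.1 (adjusted p = 0.00017), from 6.28, 6.14 and 6.10 to 5.80, 5.34 and 5.47. PDK2 fell by 0.44 ± 0.055 (adjusted p = 2.23e-05), from 6.93, 6.96 and 6.84 to 6.45, 6.47 and 6.49, while its other probe set was higher by 0.29 and the mean of both stood at -0.08, so its direction is uncertain.

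At the mitochondrial entry digoxin split the carrier. MPC1 and MPC2 are the subunits of the pyruvate carrier and are known to work as a pair. MPC1 read 8.47, 8.60 and 8.59 with DMSO, 8.62, 8.64 and 8.71 with manassantin, 8.67, 8.72 and 8.70 with rotenone and 8.23, 8.35 and 8.23 with digoxin. MPC2 read 10.33, 10.34 and 10.35, then 10.37, 10.27 and 10.44, then 10.25, 10.36 and 10.24, and 10.68, 10.70 and 10.68 in the same order. Digoxin arrays were the lowest of all for MPC1 and the highest of all for MPC2. MPC1 fell by 0.28 ± 0.054 (limma adjusted p = 0.000708) and MPC2 rose by 0.34 ± 0.053 (adjusted p = 0.000149). Within arrays, MPC2 minus MPC1 was higher by 0.627 with digoxin than with DMSO, without overlap (exact permutation test, two-sided, p = 0.1, the smallest that 3 against 3 allows, and 0.164 after Benjamini-Hochberg adjustment over 18 such tests). With rotenone the same difference stood at -0.206 from DMSO, also without overlap and with the same p-values in that test.

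DLAT, the acetyltransferase core of the pyruvate dehydrogenase complex, read 9.26, 9.34 and 9.34 with DMSO, 9.21, 9.18 and 9.27 with manassantin, 9.32, 9.32 and 9.38 with rotenone and 8.58, 8.47 and 8.65 with digoxin. It fell with digoxin by 0.75 ± 0.054 (limma adjusted p = 2.05e-07), the second largest fall among the members, with the digoxin arrays below all others. PDHA1, the catalytic alpha subunit, fell by 0.26 ± 0.048 (adjusted p = 0.000628). PDHB, its beta partner, stood at 0.06 (95% interval -0.05 to 0.17), so the subunits of 1 complex had different differences. PDHX, the complex's binding protein and not a member of the list, rose by 0.63 ± 0.055 (adjusted p = 1.15e-06).

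Sister forms of an enzyme were also set against each other within arrays, in 6 pairs and 3 compounds. HK2 minus HK1 was lower with digoxin by -0.640, and ENO2 minus ENO1 was higher by 0.310 with manassantin and lower by -0.310 with digoxin. Each of these differences separated the 3 treated from the 3 DMSO arrays (exact permutation test, two-sided, p = 0.1, the smallest possible, and 0.164 after adjustment over the 18). LDHA minus LDHB differed from DMSO by 0.0699 with manassantin, 0.0716 with rotenone and -0.104 with digoxin. ALDOC minus ALDOA stood at -0.233 with digoxin, and SLC2A3 minus SLC2A1 at 0.200 with rotenone and 0.140 with digoxin. These too separated the arrays, with the same p-values in that test. The rest overlapped DMSO, apart from the MPC2 minus MPC1 differences given above.

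Manassantin and rotenone were compared directly. PGM1 was higher with manassantin by 0.22 ± 0.042 (limma adjusted p = 0.00919) and ENO2 by 0.30 ± 0.043 (adjusted p = 0.00188), 2 of 32 members beside 8.47% of all genes called (4.69% higher, 3.78% lower). Limma called 0 members lower. At an unadjusted p under 0.05, 4 members were higher and 1 lower, beside 2805 of all 11963 genes in either direction. For both genes the 3 manassantin arrays lay above the 3 rotenone arrays, and both calls held with each array left out. The PGM1 call was lost with the 18S covariate (limma adjusted p = 0.0559), while the ENO2 call held in every setting run. SLC2A3 and HK2, called in both comparisons with DMSO, differed between the compounds by -0.02 (95% interval -0.12 to 0.09) and 0.03 (95% interval -0.09 to 0.15). PFKP stood at 0.22 (limma adjusted p = 0.0509). It passed with the replicate number as a block (adjusted p = 0.0148), in the 1 comparison where same-numbered arrays met the pairing criterion. PFKP passed in 4 of 8 alternative settings, that block among them, and in 0 of 6 fits with an array left out.

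The digoxin arrays were also set against the other compounds. Manassantin against digoxin had 20 members higher and 3 lower (56.7% of all genes called; 28.1% higher, 28.6% lower). Rotenone against digoxin had 18 higher and 4 lower (50.5% of all genes called; 26.3% higher, 24.2% lower). Against each of DMSO, rotenone and manassantin, 15 members (46.9%) were lower with digoxin and 3 (9.38%) were higher: SLC2A1, SLC2A3 and MPC2. Of all genes 22.6% were lower and 18.3% higher in this sense, and the 15 include PDK2, whose probe sets disagree. HK2 had a difference of 0.91 ± 0.054 between manassantin and digoxin (limma adjusted p = 3.52e-08), PGM1 of 0.71 ± 0.042 and ENO2 of 0.70 ± 0.043. In all 6 comparisons 8 members were called in none, and the like share of all genes is not given here.

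**Figure D3:**
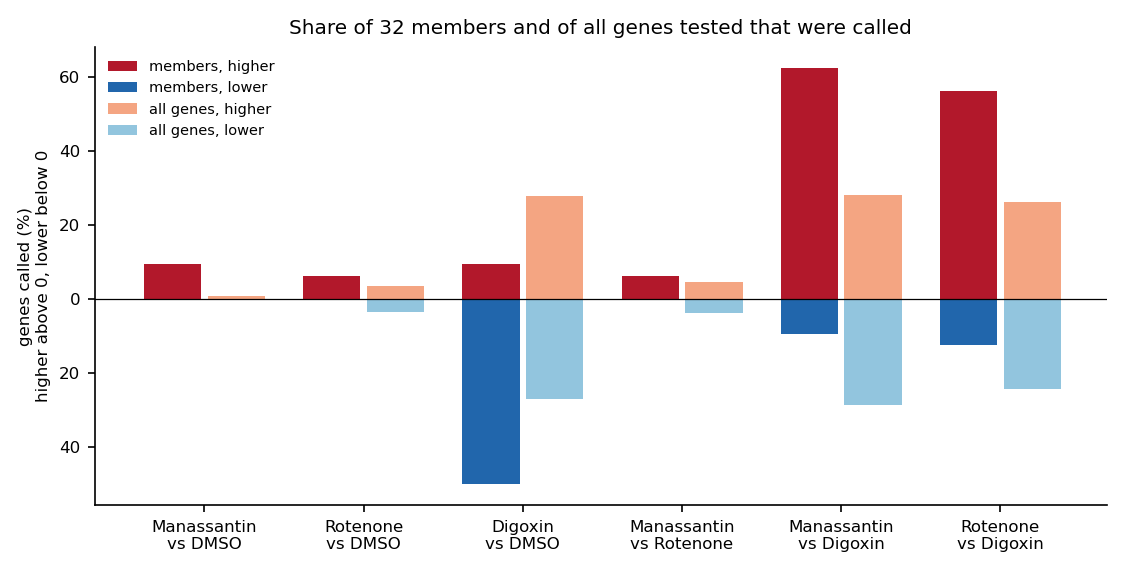
Share of the 32 members (dark bars) and of all 11963 genes (pale bars) called in each of the 6 comparisons, in percent, with genes higher in the first-named group above 0 and lower ones below. In digoxin against DMSO the lower bar of the members reaches past that of all genes at 26.9%, and the higher bar stays short of their 28%.

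Of the members, 17 had several probe sets, and these gave the size of a change less firmly than its direction. With digoxin the brightest and the dimmest probe set had the same sign for 15 of the 17, and in 8 of these the dimmest moved further. PKM fell by 0.26 in the probe set used and by 0.79 in a dimmer one, PDHA1 by 0.26 and 1.04 and TPI1 by 0.12 and 0.41. Of 9 called members with several probe sets, 8 had every other probe set called the same way. The exception, PDK2, was called in both directions. SLC2A1 rose by 0.38 and 0.49.

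**Figure D4:**
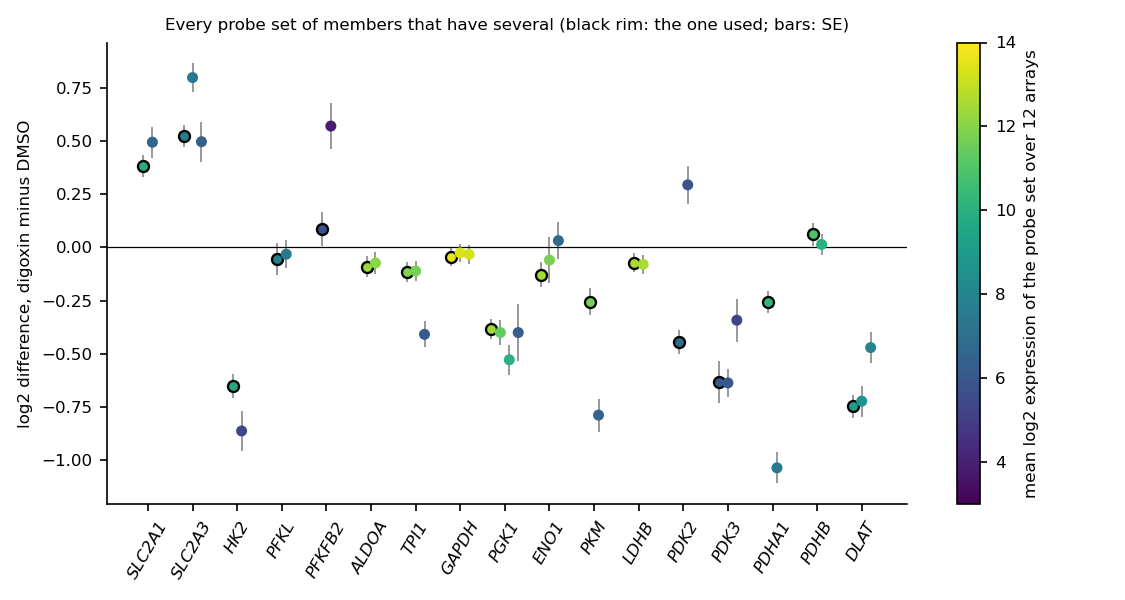
Log2 difference of digoxin minus DMSO for every probe set of the 17 members with several, coloured by the probe set's mean log2 expression over the 12 arrays, with the one used rimmed in black and bars for SE. PKM and PDHA1 have a dimmer probe set far below the one used, and PDK2 has its probe sets on either side of 0.

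Genes around the pathway were counted from lists made by function. Of 31 measured further isoforms and partners, digoxin raised 11 and lowered 6, or 54.8% called, the share of all genes. PCK2, mitochondrial phosphoenolpyruvate carboxykinase, was lower by -1.20 and FBP1, which runs the phosphofructokinase step backwards, by -0.71. The monocarboxylate transporter SLC16A7 rose by 0.69 and the glucose transporter SLC2A8 by 0.66. With manassantin limma called 0 of the 31. At an unadjusted p under 0.05, 3 were higher and 1 lower, beside 1896 of all 11963 genes in either direction. Rotenone called TIGAR at 0.35 and SLC16A7 at -0.31, which is 6.45% of the 31, beside 6.94% of all genes. Of these 2 rotenone calls 1 was kept with the 18S covariate, and 1 held with every array left out in turn.

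In the glycogen and galactose branch digoxin lowered 10 of 14 and raised 1, where 26.9% of all genes fell and 28% rose. GYS1, muscle glycogen synthase, stood at -1.41 ± 0.069, the liver phosphorylase PYGL at -1.23 ± 0.075 and PPP1R3D, a glycogen-targeting subunit of protein phosphatase, at -2.48 ± 0.080, while PPP1R3C rose by 0.42. Manassantin raised 2 of the 14, where 0.853% of all genes rose: GALT by 0.36 (limma adjusted p = 0.0167) and GYS1 by 0.35 (adjusted p = 0.0406). Neither call held with the 18S covariate or with every array left out in turn. GYS1 had opposite calls with manassantin and digoxin, and so did HK2 and ENO2 among the members. None of these manassantin calls held with the 18S covariate or with every array left out in turn, and that of HK2 rests on its brighter probe set. The like share of all genes is not given here.

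For the branches and the citric acid cycle the shares of all genes are again 26.9% lower and 28% higher with digoxin. In the serine and glycerol 3-phosphate branches digoxin lowered 5 of 8, with GPD1L at -1.41, PSAT1 at -1.15 and SHMT2 at -1.14, and raised GPD2 by 0.46. Rotenone lowered 2 of the 8 (3.39% of all genes were lower), PSAT1 at -0.48 and GPD2 at -0.46. With the 18S covariate 0 of these 2 rotenone calls were kept, and 0 held with every array left out in turn. The pentose phosphate branch had 3 of 10 higher and 3 lower with digoxin, with TKT, transketolase, at -0.60, PGLS at -0.72 and PRPS1 at 0.43. Of 19 citric acid cycle enzymes 6 rose and 6 fell (63.2% called, beside 54.8% of all genes), from IDH1, the cytosolic isocitrate dehydrogenase, at -3.44 to IDH3A at 0.59. The median of that list was 0.0139, beside -0.122 for the glycolysis and pyruvate entry genes.

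The regulators did not share 1 direction. TXNIP, which is known to restrain glucose uptake and to be induced by glucose through MondoA, read 11.06, 10.94 and 10.91 with DMSO, 10.05, 9.98 and 9.97 with manassantin, 9.95, 10.01 and 9.95 with rotenone and 12.66, 12.60 and 12.56 with digoxin. It was lower with manassantin and rotenone and higher with digoxin, with no overlap with DMSO, while SLC2A1 and SLC2A3 stood above DMSO in all 3. HIF1A transcript, which says nothing of the protein, stood at -0.02 and -0.06 with manassantin and rotenone and fell by 0.33 ± 0.054 with digoxin (limma adjusted p = 0.000214). EPAS1, which encodes the related HIF-2 alpha, rose by 0.71 with digoxin and MYC by 0.17 with rotenone (adjusted p = 0.047). ARNT, the partner of both HIF subunits, stood at -0.08, -0.07 and 0.04 with manassantin, rotenone and digoxin and was not called. ARRDC4 was not analysed here. With rotenone 4 of 19 listed regulators were called (21.1%), beside 6.94% of all genes. Of these 4, 1 kept its call with the 18S covariate and 1 with every array left out in turn.

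Hypoxia targets outside glycolysis were counted in the same way. Of 30 measured, manassantin raised 5 and limma called 0 lower, with a median of 0.139. At an unadjusted p under 0.05, 13 were higher and 1 lower, beside 1896 of all 11963 genes in either direction. Among the 5 were NDRG1 at 0.41, LOX at 0.38 and P4HA1, a collagen prolyl hydroxylase, at 0.33. Of all genes 0.853% were higher with manassantin. With the 18S covariate 0 of these 5 were called by limma, and 0 held with every array left out in turn. Rotenone raised 5 and lowered 2 (3.55% and 3.39% of all genes), with a median of 0.0685. Of these 7 rotenone calls 2 were kept with the 18S covariate, and 2 held with every array left out in turn. Digoxin raised 5 and lowered 19 (28% and 26.9% of all genes), with a median of -0.317, from DDIT4 at -2.77 and the mitophagy receptor BNIP3 at -1.44 to ADM at 2.23. DDIT4, MXI1 and EGLN1 are also in the list of regulators, and the lists were chosen with results of these arrays known.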

How the data were processed

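The 12 arrays measured total RNA, biotin-labelled after amplification per the labels' protocols. The deposited values are log2 probe set summaries made by the authors; the log2 base was inferred from their range, 1.655 to 13.75, and the sources used here do not say how background and normalization were handled. Of 22277 probe sets 62 were controls, 19064 had 1 gene symbol, 1043 several and 2108 none, and only the first kind was named. Groups and replicate numbers came from the sample titles. The brightest probe set stood for each gene. Differences were tested with lmFit and eBayes of limma 3.58.1 (R 4.3.3) on all 12 arrays with group as the only term, with 8 residual and 3.68 prior degrees of freedom. Members and lists, and the rule for the genes named outside them (up to 3 called genes in each direction with the largest change per list and comparison, and HIF1A, ARNT, EPAS1, MYC, TXNIP and ARRDC4), were chosen with earlier results of these data known. On simulated data for manassantin against DMSO, 200 of 11963 genes changed. The procedure recovered 43.4% of changes of 0.3, 80.7% of 0.5 and 99.2% of 1, and 4.73% of calls were false. The simulated noise was independent between genes and arrays, with no shift of an array shared by its genes. The false share therefore need not hold for the real arrays. The number of arrays limits precision. Same-numbered manassantin and rotenone arrays deviated together (r 0.107 to 0.362), which meets a criterion for pairing, though what the number marks is not stated; no other pair of groups met it. Alternatives were a replicate block, median centring, quantile normalization, omission of dim genes, averaging each gene's probe sets, a trended robust prior, an 18S covariate, a fit on only the groups compared and leaving out each array. The 18S control differed from DMSO by -0.87, -0.43 and -0.36 with manassantin, rotenone and digoxin. That covariate therefore overlaps with group, and a call lost with it need not mean that the change was absent. Python 3.11.15 with matplotlib 3.10.9 drew the figures.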

Additional observations from a re-analysis of the deposited data

How the results depend on the processing

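Of 2670 values recomputed for single members, 2515 stayed on their side of the threshold, 94 lost a call, 60 gained one, and 1 reversed: PFKFB2 between manassantin and digoxin stood at 0.05 with its brightest probe set and at -0.37 with the mean of its probe sets, which differ in response. Differences that were not called changed sign in some setting for 5 to 13 members per comparison. Digoxin calls were the firmest. Against DMSO 17 of 19 members held with each array left out and 15 of 19 in every setting run; LDHA was lost with median centring, PDK2 with the mean of probe sets, PDK1 with median centring, quantile normalization and only the groups compared, and TPI1 with median centring, the 18S covariate and only the groups compared. No manassantin call against DMSO held in all settings.

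Manassantin against DMSO called 116 genes and 3 members. The gene count was 291 with the replicate block, 74 with median centring, 503 with a trended robust prior, 491 without dim genes, 2 with the 18S covariate and 4 with only the groups compared. The member count was 5, 5, 0 and 0 in the last 4 of these, where the fit on only these arrays had 8 members higher at an unadjusted p under 0.05. Rotenone against DMSO called 830 genes and 2 members. The gene count was 1312 with a trended robust prior, 1301 without dim genes and 323 with the 18S covariate, and the member count was 5 with the trended robust prior, 3 of them lower, and 1 with the 18S covariate. Manassantin against rotenone called 1013 genes and 2 members. Counts were 1545 and 4 with a trended robust prior, 1540 and 4 without dim genes and 390 and 1 with the 18S covariate. The causes were not tested, except that leaving out dim genes tests fewer genes.

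Leaving out 1 array gave 7 to 25 genes and 0 members for manassantin against DMSO (6 to 10 members at an unadjusted p under 0.05 by limma), 346 to 500 genes and 1 to 2 members for rotenone against DMSO, and 5881 to 6329 genes and 17 to 19 members for digoxin against DMSO. For these fits and the fit on only the groups compared, the count of all genes at that unadjusted p is not given here. Leaving out 1 array gave 500 to 835 genes and 2 to 3 members for manassantin against rotenone, 6000 to 6759 and 21 to 23 for manassantin against digoxin, and 5365 to 5797 and 19 to 20 for rotenone against digoxin. With the replicate number as a block, manassantin against rotenone, where the pairing criterion was met, called 1352 genes and 3 members. Against DMSO the block gave 4, 2 and 20 members for manassantin, rotenone and digoxin, where same-numbered arrays correlated at no less than -0.0347 but not all over 0.1.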
